A study of Mus musculus with 12 samples.

Results

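The DNA replication and mitosis genes described here are 49 genes, named in a list, all of which were present in the count files. They are 26 of the S phase, which copies the DNA, and 23 of mitosis, which divides it, out of 18278 genes counted in each library. The rule looked each symbol up among the counted genes and used no measured value, although the list was drawn up with earlier results of these data known. All 49 members passed the filter on low counts. In the libraries labelled Nfib KO of both lines, most S-phase members were higher and most mitotic members lower than in the parental line, and both classes had members that went the other way or did not pass the test.

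Dividing cells copy their DNA once and then separate the copies. In the G1 phase, Cdc6 and Cdt1 load the MCM2-7 helicase onto replication origins. Cyclin E with Cdk2, and the transcription factors of the E2F family, open the S phase, in which GINS completes the helicase, polymerases copy the strands on the sliding clamp PCNA, and ribonucleotide reductase and thymidylate synthase supply the building blocks. Cyclins A and B with Cdk1, and the Polo and Aurora kinases, then drive mitosis. The spindle checkpoint delays separation until every kinetochore is attached, and Cdc20 with the anaphase-promoting complex (APC/C) ends the delay. S-phase genes are classically transcribed through E2F sites, and mitotic genes through a CHR element (cell cycle genes homology region) bound by the DREAM and MuvB complexes, often with a CCAAT box.

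The libraries were mRNA-seq libraries of mouse mammary tumourspheres, which are cell clusters formed from single cells in plates that prevent attachment. LM1 and LM9, called parental below, are lines from lung metastases that arose in NOD/SCID mice. Both descend from HR1, a line from a mammary tumour of a mouse with a mutant PIK3CA transgene under the CAG promoter, after piggyBac transposon mutagenesis. The groups titled LM1 Nfib KO and, for the other line, LM9 Nfib KO were pools of expanded single-cell clones, made by targeting Nfib, the gene of the transcription factor NFIB, with CRISPR-Cas9 and sorting for red fluorescent protein. By the study's account all 4 groups come from lines with the transgene and transposon insertions, which was not checked here. They were grown for 6 days at 10000 cells per mL without serum, with EGF and basic FGF at 20 ng per mL each. There were 3 libraries in each group, and nothing in the labels says whether they came from separate cultures, so the p-values measure the spread between these libraries, which may be technical. Library totals ran from 29249075 to 37162594 counts, and a member held from 74 to 54430 counts in a library.

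Nfib, the targeted gene, came first as a check of the labels. This gene (ENSMUSG00000008575, chr4:82290173-82705750, minus strand) was at 196, 217 and 241 CPM (counts-per-million, with library sizes scaled by TMM factors) in LM1 and at 239, 238 and 228 CPM in the LM1 Nfib KO-labelled libraries. In LM9, Nfib was at 210.3, 119.6 and 133 CPM in replicates 1 to 3, against 227, 247 and 246 CPM in the LM9 Nfib KO-labelled libraries. No knockout-labelled library lay below the lowest library of its parental line. The log2 difference was 0.11 in LM1 (SE 0.16, limma-voom adjusted p = 0.533) and 0.68 in LM9 (SE 0.17, adjusted p = 0.002596), or 0.93 without LM9 replicate 1 (SE 0.07, adjusted p = 1.14e-09). Exon counts do not show whether a transcript is edited, and every direction below rests on the labels alone.

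The library labelled LM9 replicate 1 stood apart from its group. Across all genes its log2 CPM values correlated with the LM1 libraries at Pearson r of 0.998 and with LM9 replicates 2 and 3 at 0.972 to 0.974. Of the 49 members, 42 were nearer the LM1 mean than the mean of the other two LM9 libraries in this library, as were 14073 of 15939 genes with counts in every library. All pairs of libraries differed by more than counting noise, so none was treated as a duplicate. In a mean chi-square per gene, LM9 replicate 1 gave 2.35, 5.73 and 3.44 against LM1 replicates 1 to 3. Pairs within LM1 gave 5.78 to 8.43, so LM9 replicate 1 was nearer LM1 replicate 1 than the LM1 libraries were to each other. Against LM9 replicates 2 and 3 it gave 181 and 161. The 6 knockout-labelled libraries correlated with each other at r from 0.998 to 0.999, whichever line they were labelled with, and with parental libraries at 0.778 to 0.795 (LM9 replicate 1 apart). Whether each of them comes from the line it is labelled with was not tested. The 7 luminal epithelial markers fixed for the check summed to 753 to 810.0 CPM of the library total in LM1 and 805 to 1335 CPM in LM9, but to 1.08 to 1.26 and 1.03 to 1.204 CPM in the LM1 and LM9 Nfib KO-labelled libraries. There, the defining markers Cldn3, Cdh1 and Cldn4 were at or near 0, while 6 fibroblast markers summed to 1425 to 1531 CPM, against 144 to 296 CPM in parental libraries, and 3 of 5 endothelial markers (Pecam1, Cdh5 and Kdr) to 386 to 397 CPM, against 0.192 to 1.10 CPM. Tek and Emcn, the other two of that list, were not analysed here. Of 6 leukocyte markers Cd68 alone was analysed, at 106 to 115 CPM in knockout-labelled and 426 to 456 CPM in parental libraries, and of 4 lung epithelial markers Foxj1 alone, under 1 CPM in every library. The 3 of 6 basal markers analysed summed to 7.46 to 8.46 CPM in knockout-labelled and 0.367 to 18.2 CPM in parental libraries. The 5 mesenchymal markers summed to 6184 to 6389.9 CPM in knockout-labelled and to 11582 to 14754 CPM in parental libraries. Of these 5, 1 was at or under 3 counts in every LM1 library and 2 in every LM9 library. None was in the knockout-labelled groups, so not all 5 followed the sum. These marker differences moved together with every difference below between a parental line and its knockout-labelled libraries, and their part in the results was not tested.

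**Figure D1:**
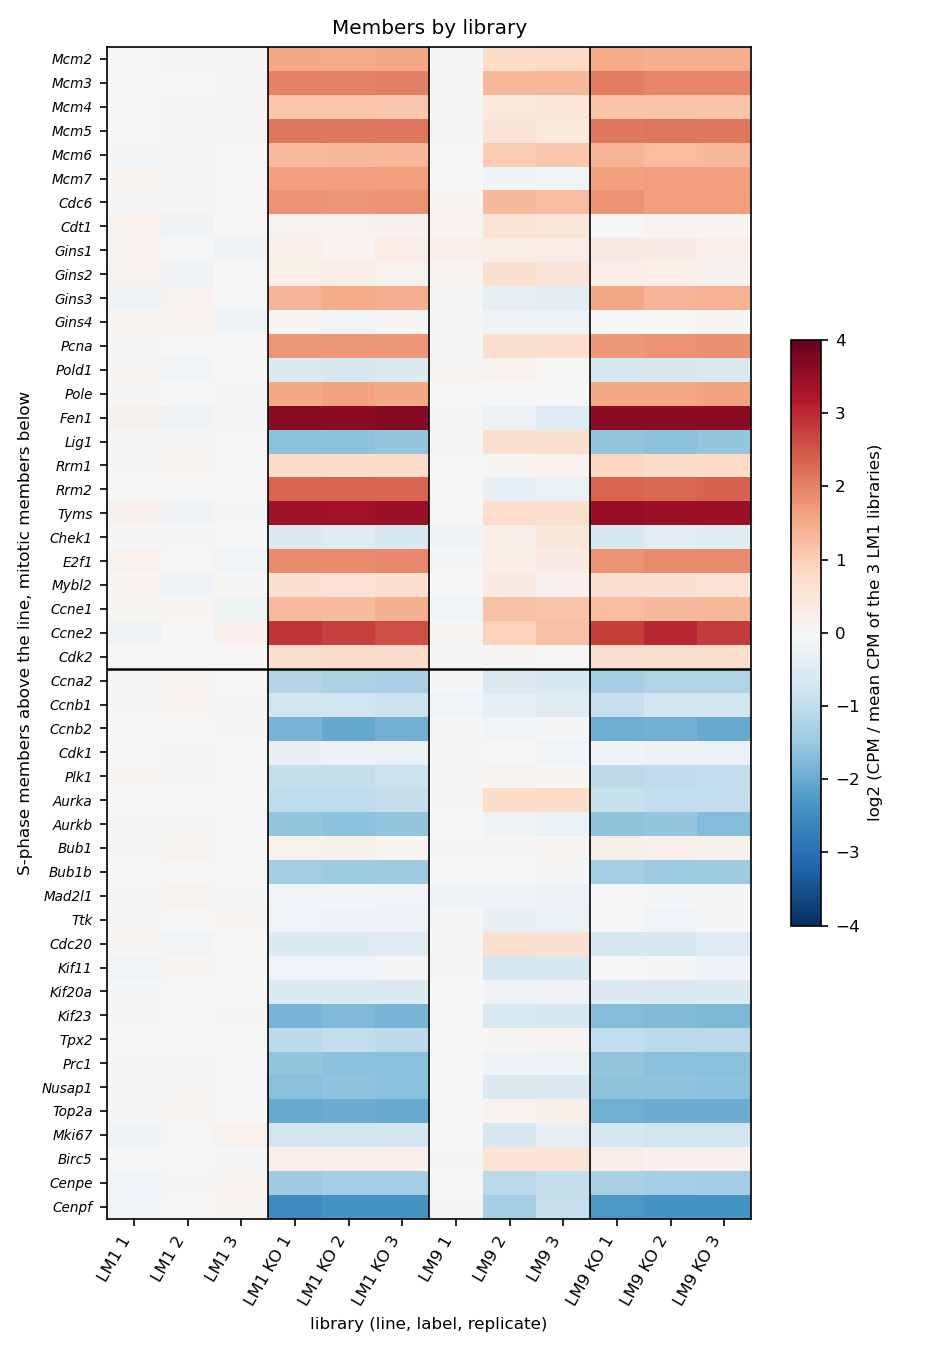
Heat map of the 49 members (rows) in the 12 libraries (columns, named by line, label and replicate), coloured by log2 of CPM over the mean CPM of the 3 LM1 libraries. Red blocks in the upper rows and blue blocks in the lower rows mark the 6 knockout-labelled libraries, and LM9 replicate 1 is as pale as the LM1 libraries.

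Most S-phase members were higher in the knockout-labelled libraries and most mitotic members lower. Against LM1, 19 of 26 S-phase members rose, 3 fell and 4 did not pass the test (limma-voom, Benjamini-Hochberg adjusted p under 0.05 over all genes). Of the 23 mitotic members, none rose, 18 fell and 5 did not pass. Over all 18176 genes tested, 81.2% passed in this comparison, 43.1% as higher and 38.1% as lower, so that passing alone does not single out a member and the counts are read by direction. Against LM9, 19 S-phase members rose, 4 fell and 3 did not pass, and of the mitotic members 2 rose, 18 fell and 3 did not pass. The shares over all genes were 82.3% in either direction, 44.3% higher and 38% lower.

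Leaving out LM9 replicate 1 did not turn this split. Without it, 19 S-phase members rose and 5 fell in LM9, and 4 mitotic members rose and 19 fell, where 88.9% of 18246 genes passed, 47.7% as higher and 41.2% as lower. With library totals in place of TMM factors, the split over all members was 24 higher and 20 lower in LM1, against 19 and 21, and 26 higher and 16 lower in LM9, against 21 and 22. Over all genes 48% were then called higher and 32.9% lower in LM1, and 52.3% and 30.2% in LM9. That scaling moves the median of all genes as well, from 0.08 to 0.31 in LM1 and from 0.13 to 0.49 in LM9 (log2), so the shift is nearly the same for the members and for all genes. Under it the mitotic members called lower in LM9 went from 18 to 13 and those called higher from 2 to 5. The falls of Ccnb1, Kif20a, Mki67 and Cenpe in LM9 no longer passed the test, at -0.12, -0.10, -0.09 and -0.31, nor did that of Cdk1 in LM1, at -0.04, and the LM9 falls of Cdk1 and Cdt1 turned to 0.17 and 0.05 without passing.

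The median log2 fold change of the S-phase members was 1.37 in LM1 and 0.85 in LM9, and that of the mitotic members was -0.99 in LM1 and -1.02 in LM9. The medians over all genes tested were 0.08 and 0.13. Without LM9 replicate 1 the S-phase median in LM9 was 0.67 and the mitotic median -1.05, beside 0.16 over all genes. In CPM, the 26 S-phase members together took 954, 931 and 940.3 CPM of the 3 LM1 libraries and 2256, 2244 and 2279 CPM of the LM1 Nfib KO-labelled ones. The 23 mitotic members together took 4579, 4886 and 4809 CPM in LM1 and 2038, 2059 and 2040.0 CPM in the LM1 Nfib KO-labelled libraries. The S-phase sum was thus 0.191 to 0.208 times the mitotic sum in LM1 and 1.09 to 1.12 times in the knockout-labelled libraries. This ratio was 0.201 in LM9 replicate 1, 0.288 and 0.277 in LM9 replicates 2 and 3, and 1.07 to 1.11 in the LM9 Nfib KO-labelled libraries. Fewer cells in a phase and less mRNA per cell cannot be told apart in bulk libraries.

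**Figure D2:**
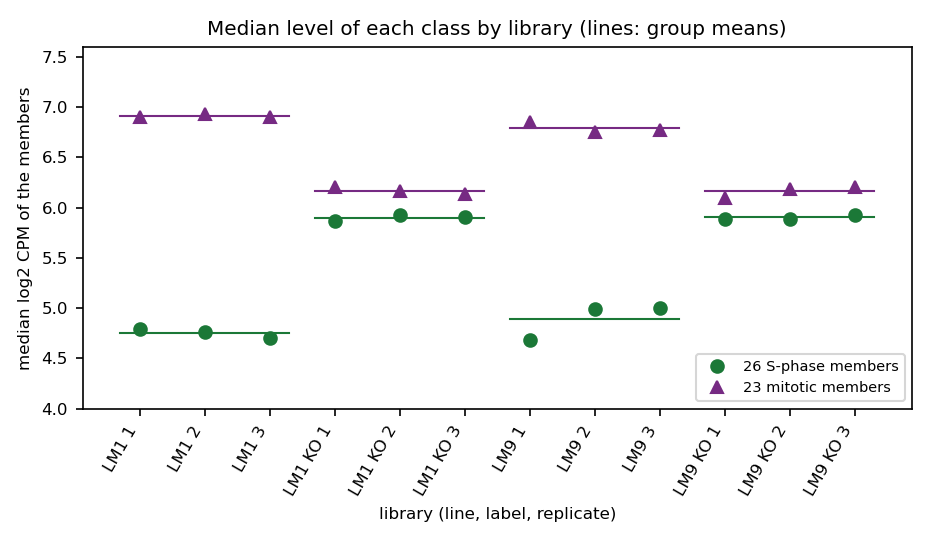
Median log2 CPM over the 26 S-phase members (circles) and the 23 mitotic members (triangles) in each library, with a line at each group's mean. The gap between the classes is between -2.20 and -2.11 in LM1 and -0.342 to -0.213 in the knockout-labelled libraries, and LM9 replicates 2 and 3 lie between these at -1.77 and -1.78.

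Promoters of the classes differed in their letters, which the rule did not use. RefSeq windows on GRCm38.p6 (the same assembly as mm10), from 250 bases before to 50 bases after the transcription start, were given for 39 of the 49 members, and not for Gins1, Gins2, Gins4, Mcm4, Pole, Ccne2, Ccna2, Aurkb, Kif20a and Tpx2. E2F letters (TTTCCCGC, TTTCGCGC, TTTGCCGC or TTTGGCGC on either strand) were in 10 of 20 S-phase windows, in 1 of 19 mitotic windows (that of Cdk1) and in 4.5% of 11077 tested genes with a window. CHR letters (TTTGAA, either strand) were in 13 of 19 mitotic windows, in 3 of 20 S-phase windows and in 14.6% of the tested genes. CCAAT, on either strand, was in 16 of 19 mitotic windows, 10 of 20 S-phase windows and 42.9% of the tested genes. The letters TTGGC, an NFI half-site that shares 4 bases with the reverse of CCAAT, were in 11 of 20 S-phase and 13 of 19 mitotic windows, near the 55.2% of all tested genes. These matches describe letters and not bound sites.

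The 5 promoters below show the letters, 2 of S-phase and 3 of mitotic members, each as the 160 bases that end just before the start site, read 5′ to 3′ along the gene, where no exon of any annotated gene lies. They are those of the helicase subunits Mcm5 (chr8:75109349-75109508, plus strand) and Mcm6 (chr1:128359706-128359865, minus strand), the topoisomerase Top2a (chr11:99024190-99024349, minus strand), the proliferation marker Mki67 (chr7:135716380-135716539, minus strand) and the spindle motor Kif11 (chr19:37376222-37376381, plus strand). Capitals mark E2F letters in Mcm5 and Mcm6, where matches on opposite strands overlap, and CHR letters in the others.
Mcm5: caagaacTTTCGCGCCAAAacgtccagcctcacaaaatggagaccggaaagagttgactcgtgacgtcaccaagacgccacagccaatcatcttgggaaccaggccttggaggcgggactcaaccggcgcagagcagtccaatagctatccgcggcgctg
Mcm6: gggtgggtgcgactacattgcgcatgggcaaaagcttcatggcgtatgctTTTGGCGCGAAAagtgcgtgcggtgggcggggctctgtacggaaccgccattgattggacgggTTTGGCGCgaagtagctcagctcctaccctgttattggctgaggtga
Top2a: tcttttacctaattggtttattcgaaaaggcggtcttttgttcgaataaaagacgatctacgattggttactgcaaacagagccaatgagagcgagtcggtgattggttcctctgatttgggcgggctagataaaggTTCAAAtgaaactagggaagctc
Mki67: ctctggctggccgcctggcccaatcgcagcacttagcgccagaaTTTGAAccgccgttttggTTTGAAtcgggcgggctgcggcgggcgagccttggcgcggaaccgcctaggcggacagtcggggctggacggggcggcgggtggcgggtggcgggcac
Kif11: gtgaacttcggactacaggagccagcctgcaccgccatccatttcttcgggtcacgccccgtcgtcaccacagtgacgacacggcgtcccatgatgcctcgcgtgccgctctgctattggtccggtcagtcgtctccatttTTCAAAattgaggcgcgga
The matches began 153 and 149 bases before the start in Mcm5, 110, 106 and 47 bases in Mcm6, 23 bases in Top2a, 116 and 98 bases in Mki67 and 19 bases in Kif11. Among these, Mcm5 and Top2a were among the larger changes of their classes, while Kif11 did not fall in either line, as given below. The 10 S-phase members with E2F letters had a median log2 fold change of 1.36 in LM1 and 0.77 in LM9, and the 10 without them had 1.63 and 1.17. The 13 mitotic members with CHR letters had medians of -0.99 and -1.34, and the 6 without them -0.44 and -0.30. No test was run between these small sets. Lig1 and Pold1, which fell, also held E2F letters.

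**Figure D3:**
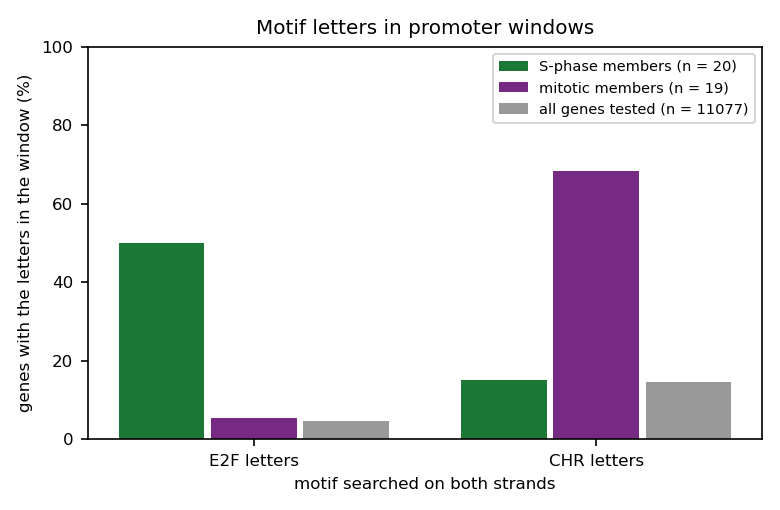
Share of genes (%) whose 300-base promoter window holds E2F letters (left) or CHR letters (right), for 20 S-phase members, 19 mitotic members and 11077 tested genes. The E2F bar of the S-phase members stands at 50% and the CHR bar of the mitotic members at 68.4%, against 4.5% and 14.6% of the tested genes.

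Among the 12 genes of origin licensing and the helicase, 8 rose in both lines and none fell in LM1. The risers were all 6 MCM subunits, the loader Cdc6 and the GINS subunit Gins3, with log2 fold changes from 1.10 to 2.13 in LM1 and from 0.61 to 1.85 in LM9, or from 0.26 to 1.85 without LM9 replicate 1, where Mcm6 was the lowest and Mcm3 was at 0.66. The LM9 call of Mcm6 was lost under 2 of 21 alternatives. Mcm5 (ENSMUSG00000005410, chr8:75109569-75128439, plus strand), a subunit of the helicase, was at 31.8, 29.8 and 32.6 CPM in the 3 LM1 libraries and at 138, 136 and 138 CPM in the LM1 Nfib KO-labelled ones. In LM9, Mcm5 was at 29.4, 45.3 and 41.2 CPM in replicates 1 to 3, and the LM9 Nfib KO-labelled libraries held 136, 137 and 135 CPM. All 6 knockout-labelled libraries lay above every parental library, and LM9 replicates 2 and 3 lay above LM1. Mcm5 rose by 2.13 on the log2 scale in LM1 (SE 0.12, limma-voom adjusted p = 1.29e-08) and by 1.85 in LM9 (SE 0.12, adjusted p = 4.11e-08), or by 1.66 without LM9 replicate 1 (SE 0.05, adjusted p = 1.71e-15). Mcm2, another subunit, was at 69.9, 65.9 and 71.8 CPM in the 3 LM1 libraries and at 197, 192 and 202 CPM in the LM1 Nfib KO-labelled ones. In LM9, Mcm2 was at 67.5, 116 and 117 CPM in replicates 1 to 3, and the LM9 Nfib KO-labelled libraries held 193, 189.5 and 191 CPM. The LM9 libraries again split, with replicate 1 inside the LM1 range and replicates 2 and 3 between LM1 and the knockout-labelled libraries. Mcm2 rose by 1.51 on the log2 scale in LM1 (SE 0.16, limma-voom adjusted p = 4.66e-06) and by 0.98 in LM9 (SE 0.16, adjusted p = 1.50e-04), or by 0.72 without LM9 replicate 1 (SE 0.04, adjusted p = 1.15e-11). Mcm7, whose exons overlap those of Cops6 and Ap4m1 on the opposite strand, rose by 1.66 in LM1 and 1.73 in LM9 and was not split among the LM9 libraries, at 55.3, 49.1 and 50.6 CPM. Cops6 was higher as well, at 45.8 CPM on average in LM1 and 119.9 CPM in the LM1 Nfib KO-labelled libraries, and at 57.2 CPM in LM9 and 119 CPM in the LM9 Nfib KO-labelled libraries. Ap4m1 was lower, going from 30.3 to 16.9 CPM on average in LM1 and from 32.1 to 16.6 CPM in LM9. Whether the counting used strand was not stated, so overlapping reads cannot be told apart.

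The change was uneven within complexes. Per length (CPM per kb of exon union), the 6 MCM genes spanned 2.94-fold in LM1, from 7.87 for Mcm5 to 23.2 for Mcm4. In the LM1 Nfib KO-labelled libraries they spanned 2.04-fold, from 27.7 for Mcm6 to 56.6 for Mcm3, so that the highest subunit differed between the groups. Their summed level was 78.8 ± 1.28 CPM per kb in LM1, 113 ± 28.8 in LM9, 236 ± 1.72 in the LM1 Nfib KO-labelled libraries and 235 ± 3.45 in the LM9 Nfib KO-labelled ones (SD, n = 3). GINS, a complex of 4 different subunits, behaved otherwise with TMM factors, since 1 of its 4 genes rose. Gins3, the lowest of them per length in LM1 at 2.77 CPM per kb, reached 7.51, a log2 rise of 1.44 (SE 0.11, limma-voom adjusted p = 1.90e-07). Gins4, the highest, was at 17.1 CPM per kb in LM1 and 17.1 in the LM1 Nfib KO-labelled libraries. The log2 differences of Gins1, Gins2 and Gins4 lay between 0.00 and 0.21 in LM1 and between -0.20 and 0.18 in LM9, and none passed the test in either line. With library totals Gins1 and Gins2 passed as rises in LM1, at 0.43 and 0.42, and Gins1 and Gins4 in LM9, at 0.40 and 0.53, against 1.66 and 2.08 for Gins3. In LM1 the call was gained under 6 of 21 alternatives by Gins1 and under 4 by Gins2. Without LM9 replicate 1, Gins2 fell by 0.37 in LM9 (limma-voom adjusted p = 1.87e-04) and Gins4 rose by 0.24 (adjusted p = 0.0117). Reads of Gins2 may include some of Gse1, whose exons it overlaps on the opposite strand.

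**Figure D4:**
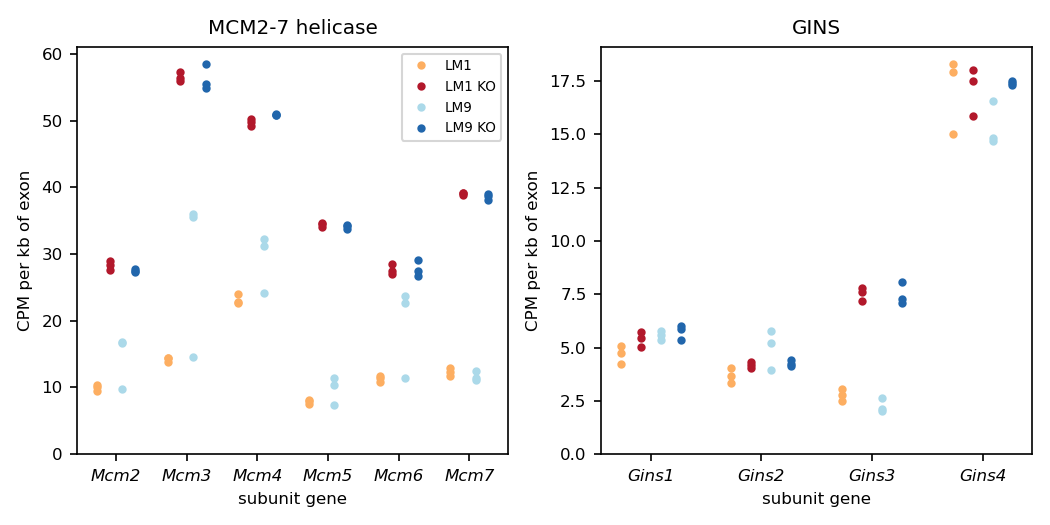
Level per length (CPM per kb of exon) of the MCM2-7 and GINS subunit genes, 1 point per library, for both lines and their Nfib KO-labelled libraries. All 6 MCM genes are higher in the knockout-labelled libraries, while of the GINS genes Gins3 stands clear of its parental values, and one LM9 point lies at the LM1 level for Mcm2, Mcm3, Mcm4 and Mcm6.

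Cdc6 and Cdt1, which load the helicase together, changed by unequal amounts. Cdc6 rose by 1.78 in LM1 (SE 0.25, limma-voom adjusted p = 4.11e-05) and by 0.87 in LM9 (SE 0.23, adjusted p = 0.00458), or by 0.46 without LM9 replicate 1 (SE 0.05, adjusted p = 1.63e-07). Cdt1, its loading partner, was at 77.4, 63.1 and 69.5 CPM in the 3 LM1 libraries and at 76.98, 77.3 and 79.3 CPM in the LM1 Nfib KO-labelled ones. In LM9, Cdt1 was at 74.7, 102 and 98.6 CPM in replicates 1 to 3, and the LM9 Nfib KO-labelled libraries held 70.99, 76.04 and 73.7 CPM. LM9 replicates 2 and 3 were the highest of the 12 libraries for Cdt1, and the other libraries overlapped. The log2 differences for Cdt1 were 0.16 in LM1 (SE 0.11, limma-voom adjusted p = 0.204), -0.30 in LM9 (SE 0.11, adjusted p = 0.0242) and -0.44 in LM9 without replicate 1 (SE 0.06, adjusted p = 2.50e-06). With library totals in place of TMM factors the LM9 value turned to 0.05, and Cdt1 passed as a rise in LM1, at 0.38. The fall of Cdt1 in LM9 was lost or turned under 6 of 21 alternatives, and a rise in LM1 was called under 4.

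Of the 5 genes of DNA synthesis, Fen1, Pole and Pcna rose and Lig1 and Pold1 fell, in both lines. Fen1 (ENSMUSG00000024742, chr19:10199132-10204169, minus strand), the flap endonuclease that trims the ends of lagging-strand fragments, was at 9.996, 8.06 and 8.64 CPM in the 3 LM1 libraries and at 109, 107 and 113 CPM in the LM1 Nfib KO-labelled ones. In LM9, Fen1 was at 8.43, 7.495 and 6.18 CPM in replicates 1 to 3, and the LM9 Nfib KO-labelled libraries held 107, 106 and 108 CPM. The 2 sets of libraries were far apart, and LM9 replicates 2 and 3 were the lowest. Fen1 rose by 3.63 on the log2 scale in LM1 (SE 0.10, limma-voom adjusted p = 4.13e-11) and by 3.86 in LM9 (SE 0.10, adjusted p = 4.40e-11), or by 3.97 without LM9 replicate 1 (SE 0.10, adjusted p = 3.84e-16). It was the largest rise among the 49 members in either line. Tmem258, whose exons it overlaps on the opposite strand, was at 49.4 CPM on average in LM1 and 33.6 CPM in the LM1 Nfib KO-labelled libraries, so that its counts did not move with those of Fen1.

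Lig1 (ENSMUSG00000056394, chr7:13277283-13311433, plus strand), the ligase that joins the trimmed fragments, was at 49.03, 52.2 and 51.7 CPM in the 3 LM1 libraries and at 16.4, 16.3 and 17.4 CPM in the LM1 Nfib KO-labelled ones. In LM9, Lig1 was at 52.2, 78.98 and 79.6 CPM in replicates 1 to 3, and the LM9 Nfib KO-labelled libraries held 17.3, 16.4 and 17.3 CPM. Here the knockout-labelled libraries were lowest, and LM9 replicates 2 and 3 were above all LM1 libraries. Lig1 fell by 1.61 on the log2 scale in LM1 (SE 0.15, limma-voom adjusted p = 1.06e-06) and fell by 2.02 in LM9 (SE 0.15, adjusted p = 1.26e-07), or fell by 2.22 without LM9 replicate 1 (SE 0.05, adjusted p = 7.72e-17). Lig1 was the largest fall among the S-phase members, opposite to Fen1, which acts just before it on the same fragments. The overlapping gene Zswim9 went from 2.65 to 12.4 CPM in LM1. Pold1, the catalytic subunit of polymerase delta, fell, with log2 fold changes of -0.60 in LM1 and -0.72 in LM9, while Pole, that of polymerase epsilon, rose by 1.55 and 1.57. Pcna, the sliding clamp of both, was at 51.2, 53.9 and 53.6 CPM in the 3 LM1 libraries and at 180.1, 177 and 177 CPM in the LM1 Nfib KO-labelled ones. In LM9, Pcna was at 50.1, 84.3 and 83.8 CPM in replicates 1 to 3, and the LM9 Nfib KO-labelled libraries held 175, 183 and 187 CPM. Pcna in LM9 replicates 2 and 3 lay between the LM1 and the knockout-labelled libraries. Pcna rose by 1.75 on the log2 scale in LM1 (SE 0.15, limma-voom adjusted p = 7.46e-07) and by 1.37 in LM9 (SE 0.15, adjusted p = 5.66e-06), or by 1.11 without LM9 replicate 1 (SE 0.04, adjusted p = 4.57e-14).

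The 3 genes of nucleotide supply rose in both lines. Tyms (ENSMUSG00000025747, chr5:30058202-30073617, minus strand), thymidylate synthase, which makes the thymidine nucleotide, was at 5.42, 4.35 and 4.63 CPM in the 3 LM1 libraries and at 50.8, 49.4 and 51.3 CPM in the LM1 Nfib KO-labelled ones. In LM9, Tyms was at 4.79, 7.74 and 7.83 CPM in replicates 1 to 3, and the LM9 Nfib KO-labelled libraries held 53.96, 52.9 and 51.6 CPM. No parental library came near a knockout-labelled one. Tyms was the lowest member per length in LM1, at 0.788 CPM per kb, and reached 8.296 in the LM1 Nfib KO-labelled libraries. Tyms rose by 3.4 on the log2 scale in LM1 (SE 0.15, limma-voom adjusted p = 1.83e-09) and by 3.01 in LM9 (SE 0.14, adjusted p = 3.11e-09), or by 2.76 without LM9 replicate 1 (SE 0.08, adjusted p = 4.05e-15). The subunits of ribonucleotide reductase rose by unequal amounts. Rrm1, the large subunit, was at 105, 112 and 105 CPM in the 3 LM1 libraries and at 183, 180.2 and 182 CPM in the LM1 Nfib KO-labelled ones. In LM9, Rrm1 was at 106, 113 and 118 CPM in replicates 1 to 3, and the LM9 Nfib KO-labelled libraries held 193, 184 and 185 CPM. All knockout-labelled libraries were above all parental ones, with no split of LM9 replicate 1 as wide as that of the MCM genes. Rrm1 rose by 0.76 on the log2 scale in LM1 (SE 0.06, limma-voom adjusted p = 1.37e-07) and by 0.73 in LM9 (SE 0.06, adjusted p = 1.88e-07), or by 0.70 without LM9 replicate 1 (SE 0.04, adjusted p = 2.62e-11). Rrm2, the small subunit, rose by 2.33 in LM1 (SE 0.07, limma-voom adjusted p = 9.14e-11) and 2.55 in LM9 (SE 0.07, adjusted p = 6.11e-11). Per length, Rrm2 was at 12.4 CPM per kb and Rrm1 at 9.75 in LM1, against 62.5 and 16.5 in the LM1 Nfib KO-labelled libraries.

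Of the 6 genes that control entry into the S phase, 5 rose in both lines and the checkpoint kinase Chek1 fell. Ccne2 (ENSMUSG00000028212, chr4:11191351-11204779, plus strand), cyclin E2, an activator of Cdk2, was at 2.62, 3.07 and 3.397 CPM in the 3 LM1 libraries and at 21.9, 20.1 and 18.2 CPM in the LM1 Nfib KO-labelled ones. In LM9, Ccne2 was at 3.205, 5.68 and 6.77 CPM in replicates 1 to 3, and the LM9 Nfib KO-labelled libraries held 20.7, 24.3 and 20.97 CPM. Values were low in LM1 and higher in LM9 replicates 2 and 3, and no parental library reached a knockout-labelled one. Ccne2 rose by 2.73 on the log2 scale in LM1 (SE 0.23, limma-voom adjusted p = 4.63e-07) and by 2.16 in LM9 (SE 0.21, adjusted p = 1.39e-06), or by 1.82 without LM9 replicate 1 (SE 0.14, adjusted p = 1.48e-09). Exons of Ints8 overlap those of Ccne2 on the opposite strand. Ccne1, cyclin E1, was at 11.2, 11.2 and 9.43 CPM in the 3 LM1 libraries and at 25.5, 25.5 and 28.2 CPM in the LM1 Nfib KO-labelled ones. In LM9, Ccne1 was at 9.82, 23.98 and 23.3 CPM in replicates 1 to 3, and the LM9 Nfib KO-labelled libraries held 25.2, 26.3 and 26.7 CPM. For Ccne1, LM9 replicates 2 and 3 nearly reached the knockout-labelled libraries, and replicate 1 was at the LM1 level. Ccne1 rose by 1.31 on the log2 scale in LM1 (SE 0.27, limma-voom adjusted p = 8.00e-04) and by 0.59 in LM9 (SE 0.25, adjusted p = 0.0479), or by 0.14 without LM9 replicate 1 (SE 0.07, adjusted p = 0.0593). The LM9 call for Ccne1 was lost without the LM9 library that resembled LM1 and, in all, under 17 of 21 alternatives.

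E2f1, the transcription factor, was at 20.6, 18.5 and 17.3 CPM in the 3 LM1 libraries and at 70.3, 69.3 and 71.01 CPM in the LM1 Nfib KO-labelled ones. In LM9, E2f1 was at 17.6, 22.6 and 23.5 CPM in replicates 1 to 3, and the LM9 Nfib KO-labelled libraries held 65.7, 70.1 and 69.1 CPM. Parental and knockout-labelled libraries did not overlap, and LM9 replicates 2 and 3 were a little above LM1. E2f1 rose by 1.91 on the log2 scale in LM1 (SE 0.10, limma-voom adjusted p = 6.58e-09) and by 1.7 in LM9 (SE 0.10, adjusted p = 1.72e-08), or by 1.57 without LM9 replicate 1 (SE 0.06, adjusted p = 1.70e-13). Chek1, the kinase that halts the cycle when replication stalls, was at 19.6, 20.97 and 20.9 CPM in the 3 LM1 libraries and at 13.6, 14.7 and 13.02 CPM in the LM1 Nfib KO-labelled ones. In LM9, Chek1 was at 18.7, 24.2 and 27.9 CPM in replicates 1 to 3, and the LM9 Nfib KO-labelled libraries held 13.1, 15.4 and 14.7 CPM. Chek1 was lowest in the knockout-labelled libraries and highest in LM9 replicates 2 and 3. Chek1 fell by 0.57 on the log2 scale in LM1 (SE 0.13, limma-voom adjusted p = 0.00188) and fell by 0.68 in LM9 (SE 0.13, adjusted p = 4.70e-04), or fell by 0.85 without LM9 replicate 1 (SE 0.08, adjusted p = 2.24e-08). Cdk2 rose by 0.71 and 0.67, and Mybl2, a transcription factor that joins MuvB, by 0.61 and 0.45 in LM1 and LM9.

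**Figure D5:**
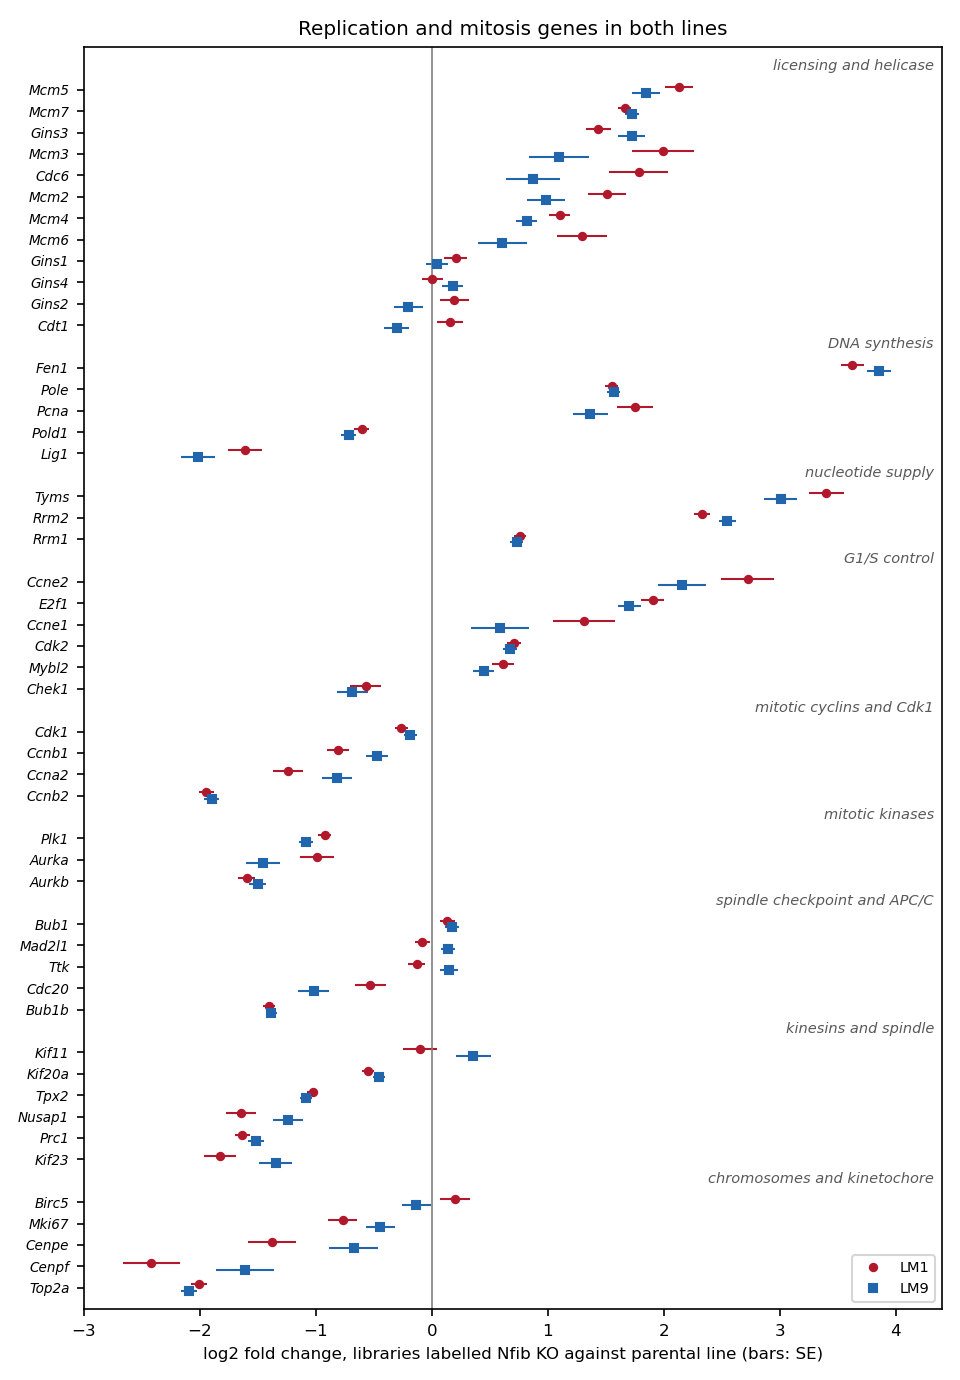
Log2 fold change of each member (rows, grouped by role) in the libraries labelled Nfib KO against LM1 (circles) and against LM9 (squares), with bars of 1 SE. S-phase groups lie mostly to the right of 0, from -1.61 to 3.63 in LM1, and mitotic groups mostly to the left, from -2.42 to 0.20.

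The 3 mitotic cyclins and Cdk1 fell in both lines, by very different amounts. Ccnb2 (ENSMUSG00000032218, chr9:70407692-70421547, minus strand), a B-type cyclin, was at 55.2, 55.6 and 58.3 CPM in the 3 LM1 libraries and at 15.5, 13.6 and 14.8 CPM in the LM1 Nfib KO-labelled ones. In LM9, Ccnb2 was at 54.1, 52.3 and 54.9 CPM in replicates 1 to 3, and the LM9 Nfib KO-labelled libraries held 14.5, 14.9 and 13.9 CPM. The 6 parental libraries lay close together, and LM9 replicate 1 did not stand apart. Ccnb2 fell by 1.94 on the log2 scale in LM1 (SE 0.07, limma-voom adjusted p = 2.31e-10) and fell by 1.9 in LM9 (SE 0.07, adjusted p = 2.97e-10), or fell by 1.89 without LM9 replicate 1 (SE 0.06, adjusted p = 5.14e-15). Ccnb1, the other B-type cyclin, was at 80.1, 87.9 and 79.8 CPM in the 3 LM1 libraries and at 47.8, 47.9 and 45.99 CPM in the LM1 Nfib KO-labelled ones. In LM9, Ccnb1 was at 76.8, 62.4 and 58.6 CPM in replicates 1 to 3, and the LM9 Nfib KO-labelled libraries held 44.03, 48.5 and 49.7 CPM. Ccnb1 was between the LM1 and knockout-labelled levels in LM9 replicates 2 and 3. Ccnb1 fell by 0.81 on the log2 scale in LM1 (SE 0.09, limma-voom adjusted p = 8.55e-06) and fell by 0.47 in LM9 (SE 0.10, adjusted p = 7.43e-04), or fell by 0.35 without LM9 replicate 1 (SE 0.06, adjusted p = 3.45e-05).

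Cdk1, the kinase that these cyclins activate, was at 209, 217 and 209.8 CPM in the 3 LM1 libraries and at 174, 179 and 177 CPM in the LM1 Nfib KO-labelled ones. In LM9, Cdk1 was at 217, 208 and 196 CPM in replicates 1 to 3, and the LM9 Nfib KO-labelled libraries held 192, 179.7 and 175 CPM. Knockout-labelled and parental libraries did not overlap in either line, although the gap was small. Cdk1 fell by 0.26 on the log2 scale in LM1 (SE 0.06, limma-voom adjusted p = 0.00105) and fell by 0.19 in LM9 (SE 0.06, adjusted p = 0.00934), or fell by 0.15 without LM9 replicate 1 (SE 0.04, adjusted p = 0.00312). With library totals in place of TMM factors, the LM9 value for Cdk1 turned to 0.17. Per length, Cdk1 was at 42.96 CPM per kb in LM1 and Ccnb2 at 36.8, against 35.8 and 9.56 in the LM1 Nfib KO-labelled libraries. Ccna2, which overlaps Exosc9 on the opposite strand, fell, with log2 fold changes of -1.24 in LM1 and -0.82 in LM9. Exosc9 went from 12.1 to 41.9 CPM on average in LM1 and from 9.38 to 43.6 CPM in LM9.

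The 3 mitotic kinases fell in both lines. Plk1, the Polo-like kinase of mitotic entry and spindle poles, was at 107, 94.3 and 99.9 CPM in the 3 LM1 libraries and at 51.9, 51.6 and 54.8 CPM in the LM1 Nfib KO-labelled ones. In LM9, Plk1 was at 105, 108 and 106 CPM in replicates 1 to 3, and the LM9 Nfib KO-labelled libraries held 49.1, 49.97 and 51.02 CPM. Plk1 did not split the LM9 libraries. Plk1 fell by 0.93 on the log2 scale in LM1 (SE 0.06, limma-voom adjusted p = 3.94e-08) and fell by 1.09 in LM9 (SE 0.06, adjusted p = 1.03e-08), or fell by 1.09 without LM9 replicate 1 (SE 0.05, adjusted p = 1.04e-12). Aurkb, the Aurora kinase of the chromosomal passenger complex, was at 119, 112 and 116 CPM in the 3 LM1 libraries and at 38.5, 37.4 and 38.8 CPM in the LM1 Nfib KO-labelled ones. In LM9, Aurkb was at 115, 105 and 97.2 CPM in replicates 1 to 3, and the LM9 Nfib KO-labelled libraries held 37.6, 39.6 and 35.03 CPM. All 6 knockout-labelled libraries were far below the parental ones. Aurkb fell by 1.6 on the log2 scale in LM1 (SE 0.07, limma-voom adjusted p = 2.20e-09) and fell by 1.5 in LM9 (SE 0.07, adjusted p = 4.02e-09), or fell by 1.43 without LM9 replicate 1 (SE 0.05, adjusted p = 5.36e-14). Aurka, the Aurora kinase of the spindle poles, fell, with log2 fold changes of -0.99 in LM1 and -1.46 in LM9. It was at 154, 247 and 246 CPM in LM9 replicates 1 to 3 and 149, 147 and 148 CPM in LM1, so that replicates 2 and 3 were farther from the knockout-labelled libraries than LM1 was.

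Among the 5 genes of the spindle checkpoint and its target, Bub1b and Cdc20 fell in both lines and the kinases Bub1 and Ttk and the checkpoint protein Mad2l1 did not fall. Bub1, a kinase that recruits the checkpoint to kinetochores, was at 71.9, 82.2 and 75.6 CPM in the 3 LM1 libraries and at 83.97, 86.7 and 81.1 CPM in the LM1 Nfib KO-labelled ones. In LM9, Bub1 was at 74.2, 79.2 and 80.6 CPM in replicates 1 to 3, and the LM9 Nfib KO-labelled libraries held 90.4, 87.2 and 86.1 CPM. The ranges of Bub1 were close, with overlap in LM1. The log2 differences for Bub1 were 0.13 in LM1 (SE 0.06, limma-voom adjusted p = 0.0725), 0.17 in LM9 (SE 0.06, adjusted p = 0.0249) and 0.14 in LM9 without replicate 1 (SE 0.05, adjusted p = 0.0167). The LM9 call of Bub1 was lost under 2 of 21 alternatives. Bub1b, its relative BubR1, was at 161, 165 and 164 CPM in the 3 LM1 libraries and at 62.7, 61.2 and 61.2 CPM in the LM1 Nfib KO-labelled ones. In LM9, Bub1b was at 160.1, 165 and 159 CPM in replicates 1 to 3, and the LM9 Nfib KO-labelled libraries held 64.4, 59.99 and 61.02 CPM. Here the parental libraries agreed closely and the knockout-labelled libraries lay far below. Bub1b fell by 1.41 on the log2 scale in LM1 (SE 0.05, limma-voom adjusted p = 3.19e-10) and fell by 1.38 in LM9 (SE 0.05, adjusted p = 3.68e-10), or fell by 1.39 without LM9 replicate 1 (SE 0.04, adjusted p = 1.60e-15). The log2 differences of Mad2l1 were -0.08 in LM1 and 0.14 in LM9, and those of Ttk -0.13 and 0.15, none of which passed the test. With library totals both genes turned positive in LM1, to 0.14 and 0.09, without passing, and both passed as rises in LM9, at 0.50 and 0.50. Bub1 passed as a rise in both lines under that scaling, at 0.35 in LM1 and 0.53 in LM9. Without LM9 replicate 1, Mad2l1 and Ttk rose in LM9, by 0.17 and 0.23. Cdc20, which overlaps Elovl1 on the opposite strand, had log2 fold changes of -0.53 in LM1 and -1.02 in LM9. Elovl1 went from 37.8 to 164 CPM on average in LM1 and from 66.6 to 165 CPM in LM9.

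Of the 6 kinesins and spindle proteins, 5 fell in both lines and Kif11 did not. Kif23, a motor of the central spindle, was at 103, 109 and 109.9 CPM in the 3 LM1 libraries and at 29.6, 31.3 and 29.6 CPM in the LM1 Nfib KO-labelled ones. In LM9, Kif23 was at 107, 70.4 and 68.4 CPM in replicates 1 to 3, and the LM9 Nfib KO-labelled libraries held 32.1, 31.8 and 31.1 CPM. LM9 replicate 1 was at the LM1 level and replicates 2 and 3 lay lower, still above the knockout-labelled libraries. Kif23 fell by 1.83 on the log2 scale in LM1 (SE 0.14, limma-voom adjusted p = 2.08e-07) and fell by 1.34 in LM9 (SE 0.14, adjusted p = 3.42e-06), or fell by 1.13 without LM9 replicate 1 (SE 0.05, adjusted p = 3.12e-13). Kif11, the motor that pushes the spindle poles apart, was at 77.1, 87.1 and 82.7 CPM in the 3 LM1 libraries and at 75.6, 76.3 and 77.7 CPM in the LM1 Nfib KO-labelled ones. In LM9, Kif11 was at 84.3, 51.3 and 52.3 CPM in replicates 1 to 3, and the LM9 Nfib KO-labelled libraries held 82.2, 79.6 and 73.7 CPM. For Kif11 the lowest libraries were LM9 replicates 2 and 3. The log2 differences for Kif11 were -0.10 in LM1 (SE 0.15, limma-voom adjusted p = 0.529), 0.36 in LM9 (SE 0.15, adjusted p = 0.0458) and 0.60 in LM9 without replicate 1 (SE 0.06, adjusted p = 2.87e-08). The LM9 call for Kif11 was lost under 15 of 21 alternatives. With library totals the LM1 value of Kif11 turned to 0.12. The bundling proteins Prc1 and Nusap1 had log2 fold changes of -1.63 and -1.64 in LM1, the spindle assembly factor Tpx2 -1.03 and the motor Kif20a -0.55. In LM9 these values were -1.52, -1.24, -1.09 and -0.46. Prc1, Nusap1 and Kif20a overlap exons of Rccd1, Oip5 and Cdc23 on the opposite strand. In LM1, Rccd1 went from 6.99 to 1.25 CPM and Cdc23 from 49.7 to 33.7 CPM, both lower as Prc1 and Kif20a were. Oip5 did not follow Nusap1, going from 9.60 to 9.45 CPM in LM1 and from 5.14 to 9.96 CPM in LM9.

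Of the 5 chromosome and kinetochore genes, 4 fell in both lines. Top2a (ENSMUSG00000020914, chr11:98992943-99024189, minus strand), the topoisomerase that untangles the copied DNA, was at 1505, 1668 and 1602 CPM in the 3 LM1 libraries and at 395, 402 and 390.2 CPM in the LM1 Nfib KO-labelled ones. In LM9, Top2a was at 1568, 1764 and 1885 CPM in replicates 1 to 3, and the LM9 Nfib KO-labelled libraries held 421, 402 and 399.6 CPM. The parental libraries were all far above the knockout-labelled ones. In both parental lines Top2a was the highest member per length, at 177 CPM per kb in LM1 and 193 in LM9. Top2a fell by 2.01 on the log2 scale in LM1 (SE 0.07, limma-voom adjusted p = 2.69e-10) and fell by 2.09 in LM9 (SE 0.07, adjusted p = 1.97e-10), or fell by 2.16 without LM9 replicate 1 (SE 0.04, adjusted p = 7.54e-18). Mki67, the Ki-67 protein that coats mitotic chromosomes, was at 247, 268 and 294 CPM in the 3 LM1 libraries and at 157, 157 and 159 CPM in the LM1 Nfib KO-labelled ones. In LM9, Mki67 was at 264, 173 and 217 CPM in replicates 1 to 3, and the LM9 Nfib KO-labelled libraries held 167, 155 and 154 CPM. The Mki67 ranges of LM9 replicates 2 and 3 reached towards the knockout-labelled libraries. Mki67 fell by 0.77 on the log2 scale in LM1 (SE 0.12, limma-voom adjusted p = 1.24e-04) and fell by 0.44 in LM9 (SE 0.12, adjusted p = 0.00611), or fell by 0.29 without LM9 replicate 1 (SE 0.08, adjusted p = 0.00192).

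Birc5, survivin, a partner of Aurora B in the passenger complex, was at 78.1, 78.2 and 73.9 CPM in the 3 LM1 libraries and at 87.4, 87.9 and 88.8 CPM in the LM1 Nfib KO-labelled ones. In LM9, Birc5 was at 73.9, 111 and 109.7 CPM in replicates 1 to 3, and the LM9 Nfib KO-labelled libraries held 91.1, 85.8 and 86.6 CPM. LM9 replicates 2 and 3 were the highest libraries for Birc5, and with all libraries Birc5 did not pass the test in either line. The log2 differences for Birc5 were 0.20 in LM1 (SE 0.13, limma-voom adjusted p = 0.169), -0.13 in LM9 (SE 0.13, adjusted p = 0.337) and -0.33 in LM9 without replicate 1 (SE 0.04, adjusted p = 5.96e-07). With library totals the LM9 value of Birc5 turned to 0.22 and passed the test as a rise (limma-voom adjusted p = 0.0432), so that its direction in LM9 depended on the scaling and the libraries used. Birc5 also passed as a rise in LM1 under that scaling, at 0.42. The kinetochore genes Cenpf and Cenpe had a wide split of the LM9 libraries. Cenpf was at 199, 217 and 228 CPM in LM1, 208, 84.6 and 114 CPM in LM9 replicates 1 to 3, and 38.7 to 43.3 CPM in the 6 knockout-labelled libraries. Cenpf fell by 2.42 on the log2 scale in LM1 (SE 0.25, limma-voom adjusted p = 2.47e-06) and fell by 1.61 in LM9 (SE 0.25, adjusted p = 8.46e-05), or fell by 1.24 without LM9 replicate 1 (SE 0.09, adjusted p = 8.30e-10). Cenpe fell, with log2 fold changes of -1.38 in LM1, -0.67 in LM9 and -0.33 in LM9 without replicate 1.

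Genes outside the 49 members, from lists of the same processes, had the same lean. These lists too were chosen with earlier results of these data known, so they are no independent check. Of 51 other replication genes, 32 rose, 10 fell and 9 did not pass in LM1, and 33, 13 and 5 in LM9, with medians of 0.74 and 0.86. Over all genes, as above, 43.1% were called higher and 38.1% lower in LM1, and 44.3% and 38% in LM9, so the counts of these lists are read by direction. The largest fall was that of Pold2, the second subunit of polymerase delta, from 152 ± 10.5 to 42.2 ± 2.32 CPM in LM1 (SD, n = 3), a log2 change of -1.85 beside -0.60 for its catalytic partner Pold1. Of 55 other mitosis genes, 11 rose, 35 fell and 9 did not pass in LM1, and 12, 35 and 8 in LM9, with medians of -0.69 and -0.70. Pttg1, securin, fell most, from 192 ± 3.75 to 11.7 ± 0.198 CPM in LM1 and from 174 ± 20.4 to 11.2 ± 0.559 CPM in LM9. Trip13, an ATPase that acts on Mad2 proteins, had the largest mean rise over both lines, from 4.66 ± 0.63 to 22.8 ± 1.07 CPM in LM1. With library totals in place of TMM factors, the other replication genes split into 33 higher and 10 lower in LM1 and 36 higher and 7 lower in LM9. The other mitosis genes split into 14 higher and 33 lower in LM1 and 19 higher and 27 lower in LM9. The medians of the other mitosis genes were then -0.47 and -0.35. Of all genes, 48% were called higher and 32.9% lower in LM1, and 52.3% and 30.2% in LM9. Both lists thus held exceptions, as the member classes did.

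The parental lines were compared next. With all libraries, 0 of the 49 members differed between LM1 and LM9 by limma-voom or by edgeR at an adjusted p under 0.05, and over all genes 1 of 18176 passed by limma-voom, 0.0055%. DESeq2 called 24 members, beside 33.9% of all genes. At an unadjusted p under 0.05, limma-voom counted 28 members, beside 47.7% of all genes. Without LM9 replicate 1, 40 of 49 members differed, where 65.7% of 18246 genes did, 33.4% as higher and 32.4% as lower in LM1. Of the S-phase members, 18 were lower in LM1 than in LM9 replicates 2 and 3 and 5 were higher, and of the mitotic members 13 were higher in LM1 and 4 lower. These calls came from 3 libraries against 2.

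Mcm3, chosen after its values were seen, had the widest S-phase difference between the lines. Mcm3 was at 53.8, 54.2 and 51.9 CPM in LM1, 54.9, 135 and 133 CPM in LM9 replicates 1 to 3, and between 206 and 219 CPM in the LM9 Nfib KO-labelled libraries. LM9 replicate 1 lay with LM1, and the other LM9 libraries lay between LM1 and the knockout-labelled libraries. Without LM9 replicate 1, its log2 difference, LM1 minus LM9, was -1.33 (SE 0.04, limma-voom adjusted p = 1.08e-13), and those of Cdc6, Ccne1, Mcm6 and Ccne2 were -1.27, -1.16, -1.04 and -1.04. Among the mitotic members, Cenpf and Cenpe were higher in LM1 by 1.13 and 1.00. Aurka, Cdc20, Birc5 and Top2a were lower in LM1 than in LM9 replicates 2 and 3, with log2 differences of -0.74, -0.62, -0.53 and -0.20, so that the mitotic members did not shift as 1 block. The 40 members that differed had log2 differences between -1.33 and 1.13.

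The knockout-labelled libraries of the lines were also compared with each other. Of the 49 members, 0 differed between the LM1 and LM9 Nfib KO-labelled libraries by limma-voom, edgeR or DESeq2, and 0 had an unadjusted p under 0.05 in any of these tools. Over all genes, 0% passed in limma-voom, with 178 genes, 0.979%, at an unadjusted p under 0.05. The log2 differences of the members lay between -0.13 and 0.08. The difference between the lines in the size of the change was tested as an interaction. With all libraries, 0 of 49 members passed that test by limma-voom, edgeR or DESeq2, beside 0% of all genes by limma-voom. At an unadjusted p under 0.05 there were 17 members, beside 24.7% of all genes. Without LM9 replicate 1, 36 members passed, where 57.2% of all genes did. In that fit the change in LM1 exceeded the change in LM9 by 1.34 for Mcm3 (SE 0.05, limma-voom adjusted p = 3.79e-12), 1.33 for Cdc6 and 1.17 for Ccne1, and for Cenpf it was -1.18, a deeper fall in LM1. The test was not passed for Pole, Bub1, Bub1b or Ccnb2, whose values were -0.02, -0.01, -0.02 and -0.05, with SEs from 0.05 to 0.08.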

How the data were processed

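Stranded mRNA libraries of 12 tumoursphere samples were sequenced as single-end reads. The authors aligned them with STAR to mm10 and counted reads whose 5′ ends fell in the exon union of each gene with QuasR, and the deposited values are raw whole-number counts per gene, 1 file per library. Versions and the use of strand in counting are not given in the sources used here. Every gene had at least 8 counts in its third-highest library, so a filter before deposit is likely. Of the 18278 identifiers, 18268 matched GENCODE M21 (GRCm38, the assembly of mm10). Coordinates are 1-based.

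From the counts, filterByExpr (count minimum 10, total minimum 15) kept 18176 genes. Libraries were scaled with TMM factors and tested with limma-voom (offset 0.5, two-sided moderated tests) in 1 model with a mean per group, and p-values were adjusted by Benjamini-Hochberg over all genes tested within each contrast, with calls at 0.05. CPM values are TMM-scaled unless stated. Tools were limma 3.58.1, edgeR 4.0.16 and DESeq2 1.42.0 in R 4.3.3, and Python 3.11.15. The code was tested on simulated data. Members are 26 S-phase and 23 mitotic genes in 9 role groups. Per-library values are given for the member with the largest and the smallest mean of both lines' log2 fold changes in each role group, and for Mcm2, Pcna, E2f1, Ccne1, Ccne2, Ccnb1, Cdk1, Mki67 and Top2a. Apart from showing what a list held, at most the largest rise and fall by that mean are named of each further list. A gene that this rule names is not reported here. Members and lists were chosen with earlier results of these data known. Alternatives tried were DESeq2 and edgeR's quasi-likelihood test, scaling by library totals or median-ratio factors, a filter at a mean of 5 CPM or none, quality weights for samples, fits restricted to the compared groups, a replicate block, and each library left out in turn. A floor of 3 counts was 0.0807 to 0.103 CPM, for counting error only. Primary tumours of the study were not used here.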

Additional observations from a re-analysis of the deposited data

How the results depend on the processing

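Of the 98 log2 fold changes of the 49 members within the lines, 72 had the same sign and stayed on one side of the adjusted p of 0.05 under each of 21 alternatives. Counts of changed members within the lines stayed within 1.5 times the values given, from 40 to 47 in LM1 and 38 to 47 in LM9 when single libraries were left out, where 77.6% to 88.6% and 78.8% to 88.9% of all genes were called. For LM1 against LM9, 0 members became 24 with DESeq2 (33.9% of all genes), 19 with library totals (28.8%), 17 with a mean of at least 5 CPM (39.4%), 39 with sample quality weights (63.8%), and 0 to 40 over the left-out libraries, the 40 being without LM9 replicate 1. The difference between the lines went from 0 members to 36 with sample quality weights (58.1% of all genes) and to 0 to 36 over the left-out libraries, again 36 without LM9 replicate 1. With library totals the S-phase medians were 1.60 in LM1 and 1.19 in LM9 and the mitotic medians -0.77 and -0.665, each moving by about as much as the median of all genes given above. Leaving out single libraries put the mitotic median in LM9 between -1.05 and -0.90. Signs turned with library totals in LM9 for Cdt1 (0.048), Gins2 (0.14), Cdk1 (0.17) and Birc5 (0.22) and in LM1 for Mad2l1 (0.14), Ttk (0.091) and Kif11 (0.12). Gins4 in LM1, at 0.0040, ran from -0.081 to 0.070 over the left-out libraries and was negative without LM1 replicate 3 or without replicate 1 or 3 labelled LM1 Nfib KO. Where no value is given for it, the cause was not tested. Replicate numbers did not pair the libraries, since deviations of same-numbered libraries correlated at -0.16 to 0.090, and the replicate block gave 40 changed members in LM1 and 41 in LM9 (80.3% and 81.6% of all genes). At these depths all 49 members were testable, the lowest of them with 74 counts.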

Other observations

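A list of 7 cyclins and kinases was counted in the same way. It held the G1 genes Ccnd1, Ccnd2, Ccnd3, Cdk4 and Cdk6, and also Cdk7 and Ccnh, which are not specific to the G1 phase. Of these 7 genes, 5 rose, 1 fell and 1 did not pass in LM1. The counts were the same in LM9 (limma-voom), with median log2 fold changes of 1.16 in LM1 and 0.91 in LM9. The rises included Cdk7 and Ccnh in both lines, and the medians are the values of Cdk7 in LM1 and Ccnh in LM9. Over all genes 81.2% were called in LM1, 43.1% as higher and 38.1% as lower, and 82.3% in LM9, 44.3% and 38%, so that the number called is near that share. Ccnd2, a D-type cyclin that starts the phosphorylation of the retinoblastoma protein, was at 0.603, 0.766 and 0.687 CPM in LM1, 1.05, 2.14 and 2.401 CPM in LM9 replicates 1 to 3 and 146 to 156 CPM in the 6 knockout-labelled libraries. Ccnd3, another D-type cyclin, fell from 106 ± 4.08 to 84.7 ± 2.703 CPM in LM1 and from 111 ± 3.22 to 83.5 ± 3.58 CPM in LM9 (SD, n = 3). With library totals in place of TMM factors neither fall of Ccnd3 passed, with log2 differences of -0.10 in LM1 (limma-voom adjusted p = 0.141) and -0.06 in LM9 (adjusted p = 0.381).

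Another list of 14 genes held the CDK inhibitors Cdkn1a, Cdkn1b, Cdkn2c and Cdkn2d and the pocket proteins Rb1, Rbl1 and Rbl2. It also held E2f3, E2f4, E2f5, Lin9, Lin37, Lin52 and Lin54, which are neither. Of these 14 genes, 2 rose, 9 fell and 3 did not pass in LM1, and 3, 10 and 1 in LM9, with medians of -1.03 and -0.62. Both rises in LM1, of E2f3 and Lin54, and the LM1 falls of E2f5, Lin9, Lin37 and Lin52 came from the latter genes. In LM1 the number called is again near the share of all genes. With library totals the LM9 counts were 3, 6 and 5, with a median of -0.26, where 52.3% of all genes were called higher and 30.2% lower. Cdkn2d, an inhibitor of Cdk4 and Cdk6, was at 122, 108 and 113 CPM in LM1 and 12.8, 10.8 and 12.02 CPM in the LM1 Nfib KO-labelled libraries. It was at 110.3, 146 and 147 CPM in LM9 replicates 1 to 3 and 10.6, 10.5 and 11.8 CPM in the LM9 Nfib KO-labelled libraries. E2f3, a transcription factor kept in the same list, had the largest mean rise over both lines, by 0.53 in LM1 and 0.43 in LM9. Cdkn1c, the remaining gene of this list, was not analysed here. No test was made of whether these genes and the members share a control.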
